A study of Mus musculus with 9 samples.

Results

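The acute phase and metal-binding response of osteocyte-like cells was followed through 6 genes, namely Saa3, Lcn2, Hp, Cp, Steap4 and Slc39a14. They were taken by gene name from a count table of 56748 genes, of which 13812 had enough counts to be tested, and all 6 were among them. They were chosen with results of these data in view, because Saa3, Lcn2 and Hp had some of the largest early increases, so the early increase of these genes is described here and not tested. By log2 fold change at 24 h over control, Saa3 ranked 2, Lcn2 3, Steap4 8, Hp 10, Cp 88 and Slc39a14 364 among the 13812 genes.

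RNA came from MLO-Y4, an immortalized osteocyte-like mouse line, grown on collagen below transwell inserts that held primary articular chondrocytes from young C57BL/6J mice, so that both cell types shared only the medium. In the control group the chondrocytes had not been stimulated, whereas in the other groups they had received 10 ng/mL of interleukin-1β (IL-1β) for 6 h before co-culture with the osteocyte-like cells for 24 h or 48 h. Each group had 3 libraries, and the culture time of the control group is not stated, so time and stimulation cannot be told apart against control. The sample labels call the line of the 48 h libraries MLO-Y5, MLO-Y6 and MLO-Y7 and that of the other libraries MLO-Y4, while the protocol names MLO-Y4 for every sample, and a difference of line cannot be told apart from the 48 h group. MLO-Y4 is a clonal line, and nothing states that replicates were separate cultures, so the p-values measure the spread between these libraries, which may be technical.

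Acute phase proteins are secreted in response to inflammatory cytokines, mainly by the liver but also by local tissue cells, and many of them bind lipids, haemoglobin or metals. Interleukin-6 family and IL-1 receptors raise their transcription through the factors STAT3, C/EBP and NF-kappaB. The response also moves metals, since withholding iron, zinc and manganese from the extracellular space limits bacterial growth, and in bone Lcn2 is known as a protein secreted by osteoblasts.

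Promoter sequence is shown for the 3 genes that were lowest in control and had the steepest increases over it, Saa3, Lcn2 and Steap4. These are the 250 bases before the transcription start in RefSeq, on build GRCm38.p6 and read 5′ to 3′ on the strand of the gene. A promoter entry was found for 4 of the 6 genes (Saa3, Lcn2, Cp and Steap4) and was not found for Hp and Slc39a14. Capitals mark matches, on either strand, to the C/EBP motif TTNNGNAA, the kappaB motif GGGNNNNNCC and the STAT motif TTCNNNGAA.
Saa3 (chr7:46715677-46715926, minus strand): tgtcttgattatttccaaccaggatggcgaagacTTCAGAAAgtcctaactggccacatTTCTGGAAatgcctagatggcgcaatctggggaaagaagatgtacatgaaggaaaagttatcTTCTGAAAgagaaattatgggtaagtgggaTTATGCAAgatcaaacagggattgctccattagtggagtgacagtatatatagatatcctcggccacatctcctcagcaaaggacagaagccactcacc
Lcn2 (chr2:32387740-32387989, minus strand): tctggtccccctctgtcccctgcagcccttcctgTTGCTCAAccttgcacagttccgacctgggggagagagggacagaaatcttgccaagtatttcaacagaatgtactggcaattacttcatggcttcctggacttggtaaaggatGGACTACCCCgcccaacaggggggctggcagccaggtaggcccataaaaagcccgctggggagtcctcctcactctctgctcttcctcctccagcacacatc
Steap4 (chr5:7960222-7960471, plus strand): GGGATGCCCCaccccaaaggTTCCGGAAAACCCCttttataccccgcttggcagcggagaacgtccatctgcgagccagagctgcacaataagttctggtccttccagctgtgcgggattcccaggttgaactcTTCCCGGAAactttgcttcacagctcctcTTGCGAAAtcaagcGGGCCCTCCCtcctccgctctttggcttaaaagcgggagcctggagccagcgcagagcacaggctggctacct

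The Saa3 window held 4 C/EBP matches, at -216, -191, -129 and -99 bases from the start, and no match to the other motifs. The Lcn2 window held 1 C/EBP match at -216 and 1 kappaB match at -102. The Steap4 window held 2 C/EBP matches at -230 and -87, 3 kappaB matches at -250, -226 and -73, and 1 STAT match at -116, and its C/EBP match at -230 overlaps the kappaB match at -226. Short motifs of this kind are common. Of 32851 mouse promoter windows of 250 bases, 36.8% held the C/EBP motif, 45.8% the kappaB motif and 7.02% the STAT motif. The metal response element was searched as TGCNCNC, a looser pattern than its core TGCRCNC (R is A or G), and 44.4% of windows held this pattern. It had no match in the windows of Saa3, Lcn2 and Steap4 and had 2 in the upstream one of the 2 Cp windows. Those 2, TGCCCTC and, on the opposite strand, GGGAGCA, have neither A nor G at the R position, so they do not match the core. Both Cp windows held a C/EBP match, at -206 and -70 from their own starts, and the downstream window also held a kappaB match at -146. These matches describe letters in the windows, and binding was not measured.

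Levels are given as CPM, counts relative to the library total (counts per 1000000) after TMM scaling, and a count of 3 in a library, taken as the limit of detection, stood for 0.16 to 0.245 CPM. Library totals were 12250628 to 15956441 counts in control, 14440454 to 15558585 after 24 h and 16458398 to 18515456 after 48 h. Differences are log2 fold changes with standard error (SE) from an edgeR quasi-likelihood fit of all 9 libraries, and a gene was called different at an adjusted p under 0.05 by the Benjamini-Hochberg method over all genes tested. In RNA from a whole well, fewer cells that express a gene and less RNA per cell cannot be told apart.

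**Figure D1:**
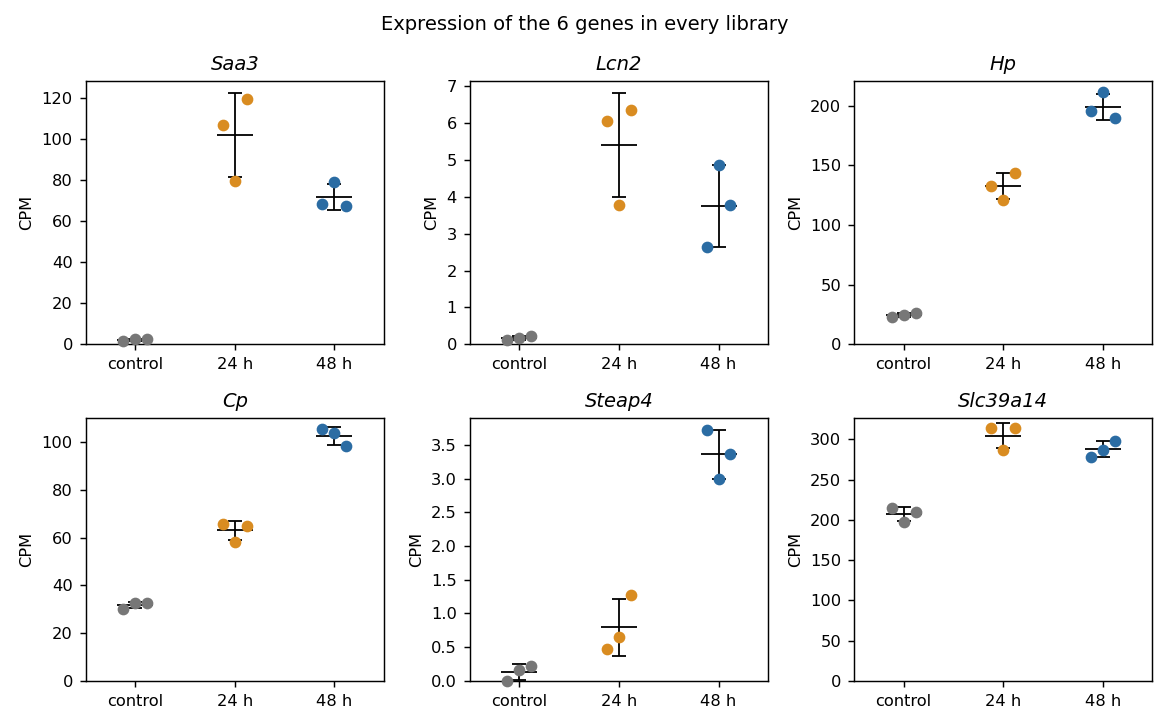
Level of each of the 6 genes in every library, in CPM on a linear axis that starts at 0 and differs in range between panels. Points are libraries (control, 24 h and 48 h, 3 each), and black bars are the mean with the SD. Every 24 h and 48 h point lies above every control point of the same gene, and Hp, Cp and Steap4 are higher at 48 h than at 24 h.

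Saa3 (ENSMUSG00000040026, GRCm39 chr7:46361422-46365124, minus strand) encodes serum amyloid A3, an acute phase apolipoprotein made largely outside the liver. Its level was 1.70, 2.54 and 2.56 CPM in the control libraries, 107, 79.8 and 119.7 CPM at 24 h and 68.6, 79.3 and 67.6 CPM at 48 h. Control libraries were thus all low, resting on 27 to 34 counts each, and every library from stimulated co-culture lay far above them. Means with their SD over 3 libraries were 2.26 ± 0.492 CPM in control, 102 ± 20.4 CPM after 24 h and 71.9 ± 6.46 CPM after 48 h. The log2 fold change over control was 5.51 (SE 0.177) at 24 h and 5.01 (SE 0.181) at 48 h. The 48 h libraries lay below all 24 h libraries, at a log2 difference of -0.51 (SE 0.107), although the lowest 24 h library and the highest 48 h library were nearly equal. Since Saa3, Lcn2 and Hp were chosen on their 24 h levels, no test is given for their values.

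Saa3 belongs to a family of related genes, so the counts of its relatives were examined. Saa1 and Saa2, the serum amyloids of the liver, had at most 3 counts in any library, and Saa4 had at most 5. Scaled by gene length, Saa3 made up 99.0% ± 1.71 of the 4 genes in control, 99.8% ± 0.193 at 24 h and 99.4% ± 0.328 at 48 h (mean and SD of 3 libraries). No window of 150 bases, the length of 1 read, in the annotated Saa3 transcripts occurred in a transcript of another gene, whereas 3.61% of windows of 50 bases did.

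Lcn2 (ENSMUSG00000026822, chr2:32274645-32278264, minus strand) encodes lipocalin 2, a secreted protein that captures iron-loaded bacterial siderophores. It had 2, 2 and 3 counts in the control libraries, 91, 58 and 90 counts at 24 h and 46, 81 and 71 counts at 48 h. The control libraries did not exceed the limit of detection, and Lcn2 passed the filter on low counts only through the stimulated groups. Its mean and SD over 3 libraries were 0.172 ± 0.0506 CPM in control, 5.40 ± 1.41 CPM after 24 h and 3.76 ± 1.11 CPM after 48 h. From the summed counts, 7 in control and 239 at 24 h, the 24 h level was 31.8 times that of control, with an exact 95% interval of 15.2 to 79.9 that covers counting error only. At 48 h, with 198 counts, the level was 22.2 times that of control (interval 10.6 to 55.8). Because Lcn2 was chosen on its early increase over these control libraries, neither interval serves as a test. The 24 h and 48 h libraries overlapped, and the log2 difference of 48 h from 24 h was -0.52 (SE 0.234). Slc22a17, a receptor for lipocalin 2, had at most 4 counts in any library, and the large endocytic receptor Lrp2 had at most 6.

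Hp (ENSMUSG00000031722, chr8:110301760-110305804, minus strand) encodes haptoglobin, the plasma protein that binds free haemoglobin. Its level was 23.1, 24.6 and 26.6 CPM in control, 132, 121 and 143 CPM at 24 h and 196, 211 and 190 CPM at 48 h, with 301 to 3551 counts per library. The 3 groups formed separate steps with no overlap. The log2 fold change over control was 2.42 (SE 0.0765) at 24 h and 3.01 (SE 0.076) at 48 h, and 48 h exceeded 24 h by 0.59 (SE 0.0649). Saa3 and Lcn2, by contrast, had a lower mean at 48 h than at 24 h. The haem carrier Hpx, the plasma partner of haptoglobin in clearing products of lysed red cells, had at most 14 counts per library, and its log2 difference from control was -0.11 at 24 h (edgeR adjusted p = 0.946) and -0.054 at 48 h (edgeR adjusted p = 0.943).

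Cp (ENSMUSG00000003617, chr3:20011218-20063309, plus strand) encodes ceruloplasmin, a copper-carrying ferroxidase that oxidizes iron as it leaves cells. Its level was 30.3, 32.5 and 32.4 CPM in control, 65.8, 58.3 and 64.9 CPM at 24 h and 106, 104 and 98.6 CPM at 48 h. The groups again stood apart in steps of similar size, and the spread within each was small. At 48 h Cp had risen over control, from a mean of 31.7 ± 1.22 CPM to one of 103 ± 3.73 CPM (SD, n = 3 each), which is 1.70 on the log2 scale (SE 0.0652, edgeR adjusted p = 8.31e-13). At 24 h the log2 fold change was 0.99 (SE 0.0672), and the step from 24 h to 48 h was 0.71 (SE 0.0606, edgeR adjusted p = 2.3e-08). Both tests share libraries with the comparison in which the set of genes was chosen. The 3′ part of Cp overlaps Hps3 (chr3:20050109-20089479) on the opposite strand, and use of the strand in counting is not stated. Hps3 itself, at 25.2, 22.6 and 24.8 CPM on average in the 3 groups, differed from control by -0.025 at 48 h on the log2 scale (edgeR adjusted p = 0.839).

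Among the multicopper ferroxidases Cp was almost alone. Heph, the membrane-bound relative of ceruloplasmin, had 0 counts in every library. Hephl1, the remaining relative, had 5 to 7 counts in the control libraries, 11 to 17 at 24 h and 16 to 30 at 48 h. It passed the filter on low counts only through the stimulated groups. Its log2 fold change of 1.45 (SE 0.399) at 48 h over control is therefore given with no test. Scaled by gene length, Cp made up 97.5% of the 3 genes in control, 97.2% at 24 h and 97.9% at 48 h. Slc40a1, the iron exporter ferroportin that works with such ferroxidases, stayed near the limit of detection, with 0.607 ± 0.397 CPM in control, 0.202 ± 0.00839 CPM after 24 h and 0.796 ± 0.165 CPM after 48 h (SD, n = 3 each).

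Steap4 (ENSMUSG00000012428, chr5:8010457-8032213, plus strand) encodes a membrane metalloreductase that reduces ferric iron and cupric copper for uptake. It had 0, 2 and 3 counts in the control libraries, 7, 10 and 18 counts at 24 h and 65, 50 and 63 counts at 48 h. No control library exceeded the limit of detection, every 24 h library did, and the 48 h libraries lay above all 24 h libraries. Steap4 passed the filter on low counts only through the stimulated groups, mainly at 48 h, so its differences are given as a description with no test. Against 5 summed counts in control, the 35 counts at 24 h gave a ratio of 6.52 (exact 95% interval 2.54 to 21.3, counting error only) and the 178 counts at 48 h a ratio of 27.9 (interval 11.7 to 86.9). The fitted log2 fold change over control was 2.62 (SE 0.654) at 24 h and 4.70 (SE 0.504) at 48 h. Without the control library that had no count these values were 1.97 and 4.06, and without the control library that had 3 counts they were 3.33 and 5.42. Without the third 24 h library, which had 18 counts, the 24 h value was 2.14. From 24 h to 48 h the fitted log2 difference was 2.08 (SE 0.348), with 1.81 when the first 24 h library was left out and 2.58 when the third was. In 3.37% of windows of 150 bases its transcripts matched, on either strand, those of Gm30835, a gene that had 0 counts in all 9 libraries.

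The other STEAP genes were far more abundant than Steap4. Scaled by gene length, Steap4 made up 0.0558% of the 4 genes in control, 0.376% at 24 h and 1.39% at 48 h. Steap3, a ferrireductase of the endosome, had the highest level in control and fell at 24 h by 0.60 on the log2 scale (SE 0.0501, edgeR adjusted p = 3.14e-07), and at 48 h its difference from control was -0.093 (edgeR adjusted p = 0.134). Steap2 rose by a log2 fold change of 0.24 at 24 h (SE 0.0566, edgeR adjusted p = 0.0123) and 0.57 at 48 h (SE 0.0561, edgeR adjusted p = 1.61e-07). Steap1 was higher at 24 h by 0.33 (SE 0.0761, edgeR adjusted p = 0.0106) and at 48 h differed by -0.033 (edgeR adjusted p = 0.758). The 24 h calls of Steap1 and Steap2 were lost without the first 24 h library, at 0.31 and 0.24, and that of Steap1 also without the first control library, at 0.31. Over all alternatives the adjusted p of the 24 h difference lay between 0.00133 and 0.0701 for Steap1 and between 0.000569 and 0.0567 for Steap2.

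Slc39a14 (ENSMUSG00000022094, chr14:70540918-70588874, minus strand) encodes ZIP14, a plasma membrane importer of zinc, manganese and iron that is not bound to transferrin. Its level was 214, 197 and 209.7 CPM in control, 314, 286 and 314 CPM at 24 h and 278, 287 and 298 CPM at 48 h. It was well expressed before stimulation, and its increase was small beside those of the other 5 genes. The log2 fold change was 0.56 (SE 0.0525) at 24 h and 0.47 at 48 h (SE 0.0523, edgeR adjusted p = 6.63e-07). The libraries of 24 h and 48 h overlapped, and their difference of -0.083 (SE 0.0517, edgeR adjusted p = 0.196) did not pass the test. As for Cp, both tests share libraries with the comparison in which the set of genes was chosen.

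**Figure D2:**
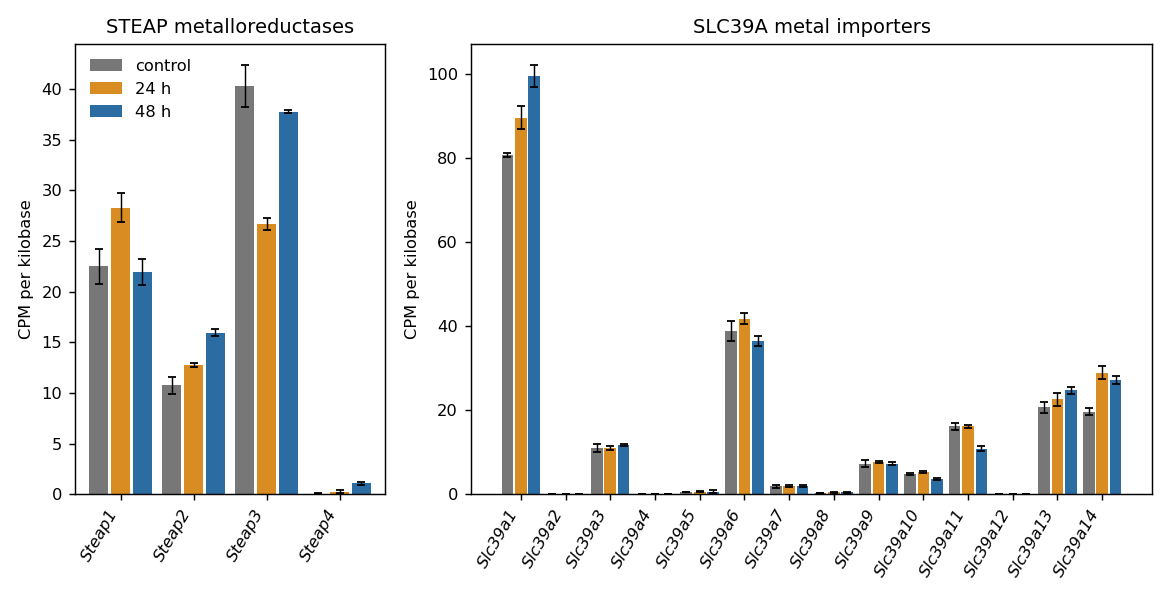
Level of each STEAP gene (left) and SLC39A gene (right) in CPM per kilobase of gene length, on linear axes from 0. Bars are the mean of 3 libraries for control, 24 h and 48 h, and error bars are the SD. Steap4 is barely visible beside its relatives, at 1.06 CPM per kilobase at 48 h, whereas Slc39a14 moved from 19.6 CPM per kilobase in control to 28.9 at 24 h.

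Within the SLC39A family of 14 metal importers, Slc39a14 held rank 4 by CPM per kilobase in control, behind Slc39a1, Slc39a6 and Slc39a13, and rank 3 at 24 h and at 48 h. Its share of the family was 9.73% ± 0.306 in control, 12.8% ± 0.429 after 24 h and 12.2% ± 0.403 after 48 h (SD, n = 3 each). Slc39a8, the close relative that also imports zinc and manganese, stayed at 2.23, 3.38 and 3.65 CPM on average in control, at 24 h and at 48 h. Its log2 fold change was 0.60 at 24 h (edgeR adjusted p = 0.169) and 0.70 at 48 h (SE 0.231, edgeR adjusted p = 0.0188). The 48 h call of Slc39a8 was lost without the second 48 h library, at 0.53, and without the third control library, at 0.56, and its adjusted p lay between 0.0123 and 0.0981 over all alternatives.

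**Figure D3:**
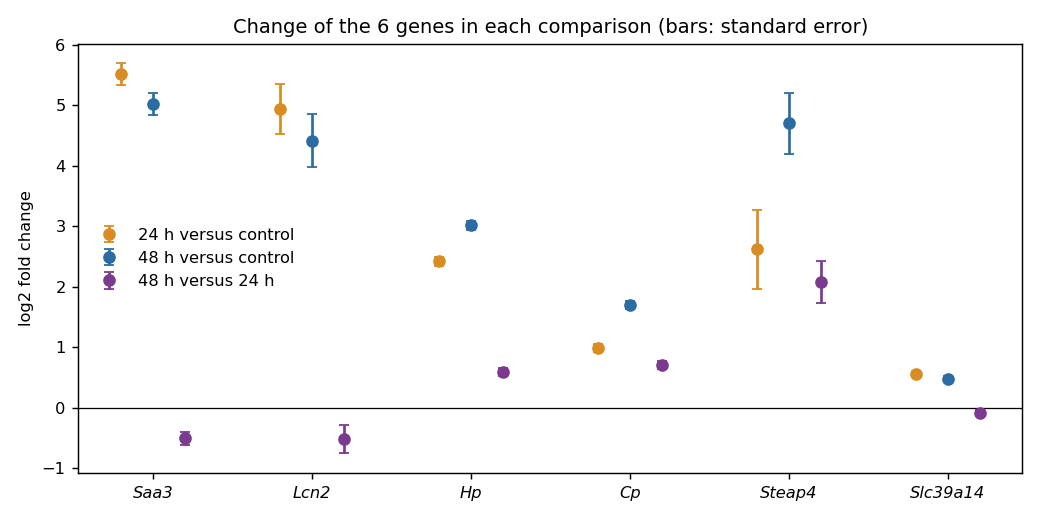
Log2 fold change of each of the 6 genes at 24 h over control, 48 h over control and 48 h over 24 h. Points are the fitted values, error bars the SE, and the horizontal line marks no change. At 24 h over control the values run from 0.56 for Slc39a14 to 5.51 for Saa3, and the 48 h over 24 h values are below 0 for Saa3, Lcn2 and Slc39a14 and above 0 for Hp, Cp and Steap4.

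Set side by side, the 6 genes fell into those whose mean was highest at 24 h (Saa3, Lcn2 and Slc39a14) and those whose mean was highest at 48 h (Hp, Cp and Steap4). For Lcn2 and Slc39a14 the libraries of both times overlapped, and a test of the later step is given only for Cp and Slc39a14. At 24 h each of the 6 genes was above control in every library, which held for 10.3% of all genes tested, and 3.25% of genes were called higher. Because the genes were chosen in that comparison, nothing is read from it. At 48 h each of the 6 genes was again above control in every library, as were 25.7% of all genes tested, and Cp and Slc39a14, the genes for which a test is given, were called higher, as were 22.0% of genes. Every 48 h library lay above every 24 h library for Hp, Cp and Steap4, as for 29.1% of genes, and below for Saa3, as for 30.3% of genes. In this step Cp was called higher and Slc39a14 was not called, while 23.7% of genes were called higher and 25.4% lower. The second 24 h library had the lowest 24 h level of Saa3, Lcn2, Hp, Cp and Slc39a14, and the first that of Steap4.

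**Figure D4:**
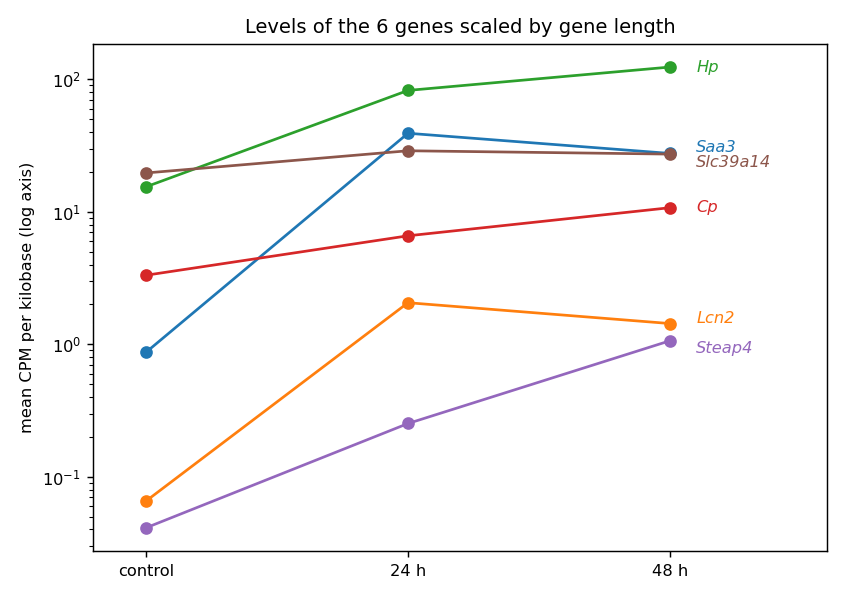
Mean level of the 6 genes in control, at 24 h and at 48 h, in CPM per kilobase of gene length on a log axis (n = 3 libraries per point). The position of genes beside each other depends on the annotated gene length. Hp passes Slc39a14 between control and 24 h and leads at 124 CPM per kilobase at 48 h, and Saa3 climbs from 0.868 to 39.2 CPM per kilobase at 24 h.

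Compared per kilobase of gene length, the order of the genes changed between groups. The gene length is 1 annotated value per gene, such as 2606 bases for Saa3, 1606 for Hp and 10550 for Slc39a14. It need not be the length of the transcripts expressed, which was not determined. Orders and shares between genes, here and within the families above, depend on it and could differ with transcript lengths. In control it was Slc39a14 at 19.6 CPM per kilobase, Hp at 15.4, Cp at 3.32, Saa3 at 0.868, Lcn2 at 0.0654 and Steap4 at 0.0411. Only the last pair overlapped between libraries. At 24 h the order was Hp at 82.4, Saa3 at 39.2, Slc39a14 at 28.9, Cp at 6.59, Lcn2 at 2.059 and Steap4 at 0.252 CPM per kilobase, with no overlap between neighbours. At 48 h it was Hp at 124, Saa3 at 27.6, Slc39a14 at 27.3, Cp at 10.7, Lcn2 at 1.43 and Steap4 at 1.06 CPM per kilobase, and here the libraries of Saa3 and Slc39a14 and those of Lcn2 and Steap4 overlapped. By this measure the haemoglobin binder Hp took 39.2% of the summed level of the 6 genes in control, 51.7% at 24 h and 64.5% at 48 h. The importer Slc39a14 took 49.9% in control and 14.2% at 48 h. Saa3 went from 2.21% in control to 24.6% at 24 h and 14.4% at 48 h.

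Other genes of the same pathways were taken from 5 lists with 125 genes in all, which exclude the 6 genes. Of these, 78 were tested, and 16 of the 78 (20.5%) were called at 24 h over control, 14 higher and 2 lower, beside 6.15% of all genes (3.25% higher and 2.9% lower). At 48 h over control 45 (57.7%) were called, 31 higher and 14 lower, beside 46.4% of all genes (22.0% higher and 24.4% lower). From 24 h to 48 h, 44 (56.4%) were called, 23 higher and 21 lower, beside 49.1% of all genes. Of the 16 called at 24 h, 8 were among the 14 inducers and feedback regulators of acute phase transcription. Some of the genes counted, Hephl1 and Orm1 among them, passed the filter on low counts only through the stimulated groups. The lists were drawn up with earlier results of these data known, so no conclusion is drawn from these shares. Each list is described by its counts and median, and none was tested as a set.

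**Figure D5:**
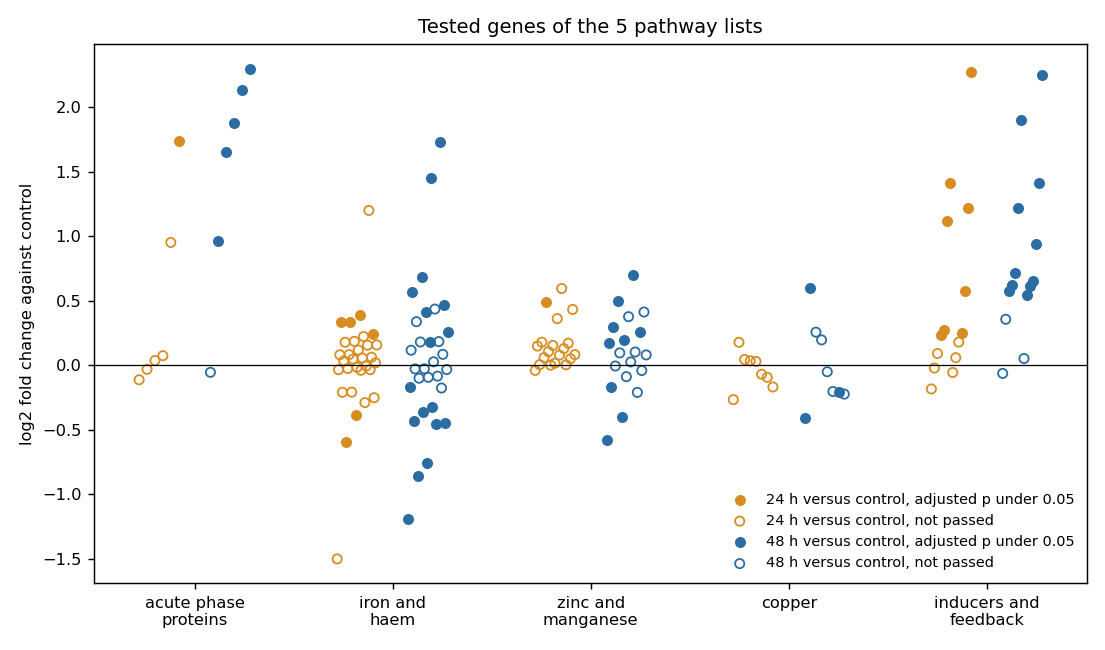
Log2 fold change over control of each tested gene of the 5 pathway lists, the 6 genes themselves left out. Orange points are 24 h and blue points 48 h, filled where the adjusted p was under 0.05 and open otherwise, and horizontal spread within a column only separates points. The acute phase proteins and the inducers reach above 2, while the metal lists spread to both sides of 0.

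Of 31 further secreted acute phase proteins, most of them liver products, 20 had no more than 3 counts in any library and 14 of those had 0, among them Crp, Apcs, the fibrinogen chain Fga, and S100a9. Lrg1, which was also too low to be tested, had at most 5 counts, all at 48 h, and S100a8, a calcium and zinc binding protein of neutrophils, at most 8. Only 6 could be tested, of which 1 was called higher at 24 h (16.7%) and 5 at 48 h (83.3%), with none lower. Of all genes tested, 3.25% and 22.0% were called higher. The median log2 fold change of the 6 was 0.056 at 24 h and 1.76 at 48 h, beside -0.0042 and -0.0022 over all genes tested.

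Among these proteins Ptx3 was the one called at 24 h. It encodes pentraxin 3, a pattern recognition protein made at sites of inflammation, and measured 5.34, 5.32 and 4.97 CPM in control, 17.0, 17.6 and 17.9 CPM at 24 h and 10.2, 11.3 and 9.02 CPM at 48 h. Like Saa3, its libraries were highest at 24 h, with a log2 fold change over control of 1.74 (SE 0.12, edgeR adjusted p = 2.06e-08) and a fall of 0.78 on the log2 scale from 24 h to 48 h (edgeR adjusted p = 6.52e-06).

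Lbp, the lipopolysaccharide binding protein, showed its difference at 48 h, with 7.03, 7.93 and 7.30 CPM in control, 8.14, 7.62 and 6.99 CPM at 24 h and 33.5, 29.1 and 34.6 CPM at 48 h. Its log2 fold change was 0.037 at 24 h (edgeR adjusted p = 0.917) and 2.13 at 48 h (SE 0.104, edgeR adjusted p = 1.5e-11). The protease inhibitor Serpina3n followed the same course, at -0.031 at 24 h (edgeR adjusted p = 0.953) and 1.65 at 48 h (SE 0.149, edgeR adjusted p = 5.31e-08). Orm1 and Agt, named here after their values were seen because they complete the 48 h count, were higher than control by 2.30 and 1.88 at 48 h. The edgeR adjusted p of Agt was 3.39e-06. None is given for Orm1, which passed the filter on low counts only through the stimulated groups.

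Of 42 iron and haem genes, 31 were tested. At 24 h 4 were called higher and 2 lower (19.4% called), and at 48 h 8 higher and 9 lower (54.8% called). Of all genes tested, 6.15% and 46.4% were called. The median log2 fold change of the list was 0.049 and -0.027, beside -0.0042 and -0.0022 over all genes tested. Tfrc, the transferrin receptor for iron uptake, measured 236, 209 and 239.9 CPM in control, 245, 241 and 238 CPM at 24 h and 93.3, 104 and 102 CPM at 48 h. Control and 24 h libraries overlapped (log2 fold change 0.082, edgeR adjusted p = 0.499), and at 48 h all libraries were below them (-1.19, SE 0.0596, edgeR adjusted p = 1.97e-11). Slc11a2, the divalent metal transporter that carries iron out of endosomes, was called higher at both times, at 0.39 (edgeR adjusted p = 0.000124) and 0.41 (edgeR adjusted p = 5.45e-06). Slc11a1, its relative, fell by 0.86 on the log2 scale at 48 h (edgeR adjusted p = 3.1e-06).

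The genes of iron storage and haem breakdown were described by their main members. Ftl1, the ferritin light chain, fell by 0.38 at 24 h (edgeR adjusted p = 0.000306) and by 0.45 at 48 h (edgeR adjusted p = 5.25e-06) on the log2 scale. Fth1, the ferritin heavy chain, differed from control by 0.18 at 24 h (edgeR adjusted p = 0.0535) and -0.10 at 48 h (edgeR adjusted p = 0.132). Hmox1, the inducible haem oxygenase that breaks down haem, was at 0.02 at 24 h (edgeR adjusted p = 0.886) and fell by 0.36 on the log2 scale at 48 h (edgeR adjusted p = 6.23e-06).

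Of 28 zinc and manganese transporters and metallothioneins, 19 were tested, of which 1 was called at 24 h, higher, and 9 at 48 h, 6 higher and 3 lower. These shares of 5.26% and 47.4% were near those of all genes tested, 6.15% and 46.4%. The median log2 fold change of the 19 was 0.11 at 24 h and 0.096 at 48 h, beside -0.0042 and -0.0022 over all genes tested. The gene called at 24 h was Slc30a1, the zinc exporter of the plasma membrane, at 0.49 (SE 0.119, edgeR adjusted p = 0.0161), and it was lower at 48 h than at 24 h by a log2 difference of -0.70 (edgeR adjusted p = 6.83e-05). The 24 h call of Slc30a1 was lost without the first 24 h library (0.48), the second 24 h library (0.47) or the first control library (0.45), and its adjusted p lay between 0.0116 and 0.0787 over all alternatives. Mt1, a zinc and copper binding metallothionein, averaged 421 ± 41.8 CPM in control, 409.9 ± 27.0 CPM after 24 h and 597 ± 37.5 CPM after 48 h (SD, n = 3 each), and it was higher than control by 0.50 at 48 h (edgeR adjusted p = 5.72e-06). Mt2 remained under 2 CPM in every library and was not called. Slc39a11 fell by 0.58 on the log2 scale at 48 h (edgeR adjusted p = 1.18e-06).

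Of 10 copper genes, 8 were tested, with none called at 24 h, where their median was -0.0195, and 3 at 48 h (37.5%), 1 higher and 2 lower, with a median of -0.13. Of all genes tested, 6.15% were called at 24 h and 46.4% at 48 h, with medians of -0.0042 and -0.0022. The copper importer Slc31a1 and the copper pump Atp7a, which loads copper onto secreted enzymes such as ceruloplasmin, were not called at either time, with log2 fold changes of -0.05 and 0.26 at 48 h (edgeR adjusted p = 0.528 and 0.193). Cox17, a copper chaperone for cytochrome oxidase, rose by 0.60 at 48 h (edgeR adjusted p = 0.00073), and Sco1, another such chaperone, fell by 0.41 on the log2 scale (edgeR adjusted p = 0.0016).

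All 14 genes listed as inducers and feedback regulators of acute phase transcription were tested, of which 8 were called higher at 24 h and 11 at 48 h, with none lower. These are 57.1% and 78.6% of the list, beside 3.25% and 22.0% of all genes tested called higher. The median log2 fold change of the list was 0.24 at 24 h and 0.64 at 48 h, beside -0.0042 and -0.0022 over all genes tested. Cebpd, a C/EBP factor that is itself induced in the acute phase, measured 9.92, 9.89 and 6.85 CPM in control, 25.8, 20.6 and 24.7 CPM at 24 h and 40.5, 37.6 and 49.3 CPM at 48 h. It rose in steps without overlap, by 1.41 at 24 h (SE 0.141, edgeR adjusted p = 2.42e-06) and 2.25 at 48 h (SE 0.132, edgeR adjusted p = 1.73e-10). Cebpb, a related C/EBP factor, was at -0.021 at 24 h (edgeR adjusted p = 0.969) and 0.36 at 48 h (edgeR adjusted p = 0.0933).

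Nfkbiz, a nuclear partner of NF-kappaB needed for induction of Lcn2 in other cells, measured 66.1, 65.2 and 68.5 CPM in control, 155, 133 and 146 CPM at 24 h and 169, 179.6 and 181 CPM at 48 h. It rose by 1.12 at 24 h (SE 0.0619, edgeR adjusted p = 1.43e-09) and 1.41 at 48 h (SE 0.0615, edgeR adjusted p = 3.88e-12). The feedback inhibitor Socs3 rose by 0.57 at 24 h (edgeR adjusted p = 2.1e-05) and 0.94 at 48 h (edgeR adjusted p = 2.65e-09). Zc3h12a, a ribonuclease that degrades inflammatory transcripts, was highest at 24 h, at 1.22 (edgeR adjusted p = 1.09e-08) against 0.54 at 48 h (edgeR adjusted p = 2.21e-05). Its fall of 0.67 on the log2 scale from 24 h to 48 h passed the test (edgeR adjusted p = 4.86e-07).

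The protein-coding genes whose levels most resembled those of the 6 genes were sought by Pearson correlation of log2 CPM over the 9 libraries, among 10266 genes. The libraries form 3 groups, so such a value mostly reflects group means, and it is given as a description. Saa3 and Lcn2 were each the gene most like the other (r = 0.994), followed for both by Vegfa (r = 0.988). Hp was nearest to the complement gene C3 (r = 0.997), which averaged 7.87, 35.5 and 59.7 CPM in control, at 24 h and at 48 h, and then to Nfkbiz (r = 0.996) and Ackr3 (r = 0.995). Cp was nearest to Tsc22d1 (r = 0.995), Pfkfb3 (r = 0.992) and Brinp3 (r = 0.992), all with their highest mean at 48 h. Steap4 was nearest to Sbno2 (r = 0.982), Stat3 (r = 0.974) and Stard13 (r = 0.973). Slc39a14 was nearest to Mmp3 (r = 0.988), which averaged 4.02, 25.5 and 22.0 CPM in the 3 groups, and then to Lcn2 and Col5a2 (both r = 0.984).

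Markers of other cell types that make acute phase proteins were examined beside these values. Of 6 hepatocyte markers, 3 had no count and all were under 1 CPM in every library. Of 11 leukocyte markers, 10 were under 1 CPM in every library and Adgre1, Tyrobp, Itgam and S100a9 were at 0, with summed levels of 3.54 to 4.82 CPM in control, 2.54 to 2.99 at 24 h and 3.89 to 4.61 at 48 h, mostly Csf1r. Of 10 chondrocyte markers, Acan, Col9a1 and Cnmd were at 0, Col2a1 had at most 7 counts, and summed levels, almost all Prg4 with some Sox9, ran from 1681 to 1716 CPM in control, 1565 to 1649 at 24 h and 2127 to 2216 at 48 h. Prg4 and Sox9 were higher at 48 h than in control, by log2 fold changes of 0.38 and 0.144 (edgeR adjusted p = 8.64e-08 and 0.0449). The cartilage matrix gene Matn3 fell by 1.25 on the log2 scale (edgeR adjusted p = 0.00155), and Col11a2 was not called (edgeR adjusted p = 0.961). Comp, another cartilage matrix gene, was higher by 1.45, on 3 to 7 counts in control libraries and 12 to 21 at 48 h. No test is given for Comp, which the filter kept only through the 48 h libraries. The summed osteocyte markers were also highest at 48 h, at 2992 to 3163 CPM in control, 3064 to 3096 at 24 h and 3868 to 3939 at 48 h. Gja1 averaged 1498 CPM in control and 2413 CPM at 48 h, a log2 fold change of 0.69 (edgeR adjusted p = 1.14e-10). At 48 h Phex and Pdpn were also called higher than control, by 0.43 and 0.146 (edgeR adjusted p = 0.0024 and 0.0161). Bglap and Col1a1 were called lower, at -0.587 and -0.135 (edgeR adjusted p = 0.0336 and 0.0085), and Runx2 was not called (edgeR adjusted p = 0.136). The part of these higher 48 h sums in the levels of Hp, Cp and Steap4 was not tested. Of 10 osteocyte markers, Mepe and Fgf23 were at 0, Sost had at most 1 count and Dmp1 at most 6, whereas Phex, Pdpn, Gja1, Bglap, Col1a1 and Runx2 were expressed in all 9 libraries. Several defining markers of mature osteocytes were thus absent or near the limit of detection.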

How the data were processed

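RNA of 9 libraries was sequenced as paired reads of 150 bases from a directional kit. The authors deposited raw counts per gene, not normalized. Per the labels, HISAT2 aligned the reads to GRCm39 and genes were counted with featureCounts (version 2.06 per the submitters' processing notes, given differently elsewhere). The study's methods also name RSEM. Use of the strand and treatment of reads with several matches are not given in the sources used here, so counts of overlapping genes and close copies are uncertain.

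Groups came from the sample labels. Counts were analysed with edgeR 4.0.16 in R 4.3.3, with filterByExpr (minimum count 10, which kept 13812 genes and 99.9% of counts), TMM scaling and 1 quasi-likelihood fit of all 9 libraries with group as the only term (6 residual degrees of freedom). P-values were adjusted by Benjamini-Hochberg over all genes tested. No p is given for Steap4, for which it had been planned, or for Hephl1, Orm1 and Comp, because the filter kept them only through the stimulated libraries. The fit was tested on simulated data. SEs come from the fold change and F statistic. Per-length values divide CPM by the gene length given with the counts, which need not be the length of the transcripts expressed.

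The 6 genes and the pathway and marker lists were chosen with earlier results of these data known. Named pathway genes were chosen by role, plus the 2 called genes per list and contrast against control with the largest change at a mean of at least 5 CPM. Alternatives were DESeq2 1.42.0, other scaling and filters, pairwise fits, a replicate block and leaving out each library. Replicates differed beyond counting noise, with a chi-square per degree of freedom of 2.26 to 8.14, so none was a duplicate.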

Additional observations from a re-analysis of the deposited data

Results flagged for a closer look

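Several effects over control differed between the 2 times of co-culture, by the edgeR test of 48 h against 24 h, in which the control libraries cancel. Such differences were common, since 49.1% of all genes tested were called. Of the 6 genes a test of this step is given only for Cp and Slc39a14, and the other genes were left out by rule. Cp was called, with a log2 difference of 0.705, and was higher than at 24 h in 3 of 3 libraries, while Slc39a14 was not called.

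Of the acute phase proteins, Lbp was higher at 48 h by 2.09 and Serpina3n by 1.68, and Ptx3 lower at -0.779. Of the inducers, Cebpd was higher by 0.843, Socs3 by 0.365 and Nfkbiz by 0.289, and Zc3h12a was at -0.673. Of the iron genes, Slc40a1 was higher by 1.93 on few counts, Steap3 by 0.503 and Steap2 by 0.323, while Tfrc was at -1.28, Slc11a1 at -1.04, Hmox1 at -0.379, Steap1 at -0.366 and Fth1 at -0.279. Of the zinc and copper genes, Cox17 was higher by 0.77 and Mt1 by 0.542, while Slc30a1 was at -0.702, Slc39a11 at -0.577 and Sco1 at -0.447. All these values are log2 differences of 48 h from 24 h.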

How the results depend on the processing

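The counts of called genes were recomputed under other scalings, filters and tools and without single libraries, and 189 recomputed counts stayed within 1.5 times the reported value while 3 did not. Those 3 concern all genes at 24 h over control, where 849 genes were called. Leaving out single libraries gave 518 to 1475 calls, with 518 without the third 24 h library, 524 without the first and 1475 without the third control library. The cause was not tested. Values of single genes were recomputed for Saa3, Lcn2, Hp, Cp, Steap4 and Slc39a14 in every contrast. Other named pathway genes were recomputed only in contrasts where they had been called. Their differences that had not been called were left out, so changes of sign and gained calls were not looked for there. Among the values recomputed none changed sign, and 8 calls of Steap1, Steap2, Slc39a8 and Slc30a1 were lost without single libraries. The same replicate numbers occur in each group, but same-numbered libraries did not deviate together (correlations -0.0493 to 0.0775). A replicate block gave 958 calls at 24 h over control and 6468 at 48 h over control. No recomputed call of a named gene was lost under it. Called pathway genes at 24 h over control went from 16 to 18 with this block. Depth limits Lcn2 and Steap4 in control, where no library exceeded 3 counts.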
